A study of Mus musculus with 9 samples.

Results

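The 10 genes described here belong to the autophagy machinery that developing red cells use, and were taken by gene symbol from the 17769 genes of the deposited count table. They are Ulk1, Foxo3, Atg5, Atg7, Map1lc3a, Map1lc3b, Gabarap, Gabarapl1, Gabarapl2 and Sqstm1, and all 10 passed the filter on low counts. RNA came from mouse bone marrow sorted by flow cytometry for MEP, a name used for progenitors of megakaryocytes and red cells, and each group has 3 libraries. E12 mice carried SclCre and a Jak2 mutation in exon 12 and were sampled 6 weeks after tamoxifen. VF mice carried SclCre and the Jak2 mutation V617F and were sampled after 12 weeks, and WT mice are the controls, also labelled with 12 weeks after tamoxifen. All 3 groups were on a C57BL/6N background, and mutations were switched on by 5 injections of tamoxifen, one a day. SclCre is a Cre recombinase driven by Scl, a gene of blood stem and progenitor cells, so the mutation is limited to cells in which that driver was active. The labels give no Cre status for WT. E12 therefore stands apart from VF and WT by time as well as by genotype. The labels do not say that replicates are separate mice, so a p-value here measures only how these libraries spread, and that spread may be technical.

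Autophagy wraps cytoplasm in a double membrane, the autophagosome, and delivers it to the lysosome. The kinase Ulk1 starts the process. Atg7 and Atg5 act in the enzyme relay that couples small ubiquitin-like proteins of the Atg8 family (the LC3 and GABARAP proteins) to membrane lipid, and cargo receptors such as Sqstm1 (p62) bind those proteins. Maturing red cells remove mitochondria, ribosomes and other organelles, and autophagy takes part in that clearance. Foxo3 is a transcription factor of erythroid maturation whose known targets include autophagy genes.

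The Atg8 proteins are coupled to lipid through a glycine near their end, which Atg4 proteases expose by cutting off what follows. The last 24 coding bases before that glycine codon, the codon itself in capitals and the next codon are shown for 4 members from the GENCODE transcripts on GRCm38, because the family members differ in the results below.
Map1lc3a: gtctacgcctcccaagaaaccttcGGCttc
Gabarap: gcctacagtgatgaaagcgtctatGGTctg
Gabarapl1: gcctacagtgatgaaagtgtctatGGAaaa
Gabarapl2: gcctacagcggagagaacacttttGGCttc
In each of these 4 genes 1 codon follows the glycine before the stop codon. The aligned coding sequences of Gabarap and Gabarapl1 were 74.9% identical. The longest run of bases that any pair of the 5 family transcripts shared was 17 bases. Gabarapl2 has 3 near-identical transcripts of other genes (Gm3724, Gm5829 and Gm6051, 99.4%, 96.6% and 98.0% identical over 349 to 352 bases) that have no row in the count table, so its counts are uncertain. The kit does not mark strand. Reads of Gabarapl1, Sqstm1 and Map1lc3b therefore cannot be told apart from those of 1700101I11Rik, Mrnip and Zcchc14 on the opposite strand where their exons overlap.

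On GRCm38 (RefSeq, GRCm38.p6), Ulk1 lies at chr5:110784489-110810120, Foxo3 at chr10:42181845-42276695, Atg5 at chr10:44268322-44364299 and Atg7 at chr6:114643127-114860604. Map1lc3a lies at chr2:155276364-155278073, Map1lc3b at chr8:121590438-121598760, Gabarap at chr11:69991370-69994949 and Gabarapl1 at chr6:129533192-129542331. Gabarapl2 lies at chr8:111940703-111952915 and Sqstm1 at chr11:50200152-50210820. All are protein-coding. RefSeq promoters (250 bases before to 50 after the start) were at hand for 9 of the 10 genes, not for Map1lc3a. The E-box CACGTG was found in 2 of them, 14 bases before the start used for Atg5 and 132 bases before that used for Atg7. It was in 9.08% of all 16789 promoters. The start used for Atg7 is an internal one, since its promoter window (chr6:114670846-114671145) lies inside the gene span given above. Starts used for Atg5 (window chr10:44268089-44268388) and Ulk1 (window chr5:110810032-110810331) also lie within the spans given above, not at their ends. The FoxO motif GTAAACA and the GATA motif AGATAA, searched on both strands, were in 0 of the 9, against 2.7% and 7.64% of all promoters.

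E12 libraries held 20328414 to 23499914 counts, VF libraries 19256431 to 21331168 and WT libraries 33838681 to 39736096. Genes without a count made up 12.4% to 18.7% of the table in E12 and 10.7% to 12.4% in VF, against 27.2% to 30.1% in WT. Short genes, those under 1 kb in the deposited gene length, took 6.92% to 8.79% of counts in E12 libraries and 8.24% to 8.97% in VF libraries. In WT libraries they took 11.2% to 27.9%, with WT 50 the highest. Facility numbers of the WT libraries belong to a different run of numbers than those of both mutants, so this difference and genotype cannot be told apart. Summed over 15 erythroid marker genes, levels were 8909 to 26737 CPM (read counts scaled to the library size with TMM factors) in E12, 1215 to 1847 CPM in VF and 22755 to 37134 CPM in WT. Summed over 15 megakaryocyte markers they were 488 to 602 CPM in E12, 2269 to 2925 CPM in VF and 69.0 to 198 CPM in WT, where Itgb3, Gp6 and Ppbp were at 0. Over 10 stem cell markers they were 321 to 573 CPM in E12, 1394 to 1472 CPM in VF and 32.5 to 39.6 CPM in WT. Neutrophil markers (10 genes) summed to 2048 to 2310 CPM in E12, 7147 to 13125 CPM in VF and 510 to 7842 CPM in WT. Monocyte and macrophage markers (10 genes) summed to 110 to 242 CPM in E12, 195 to 281 CPM in VF and 23.7 to 77.5 CPM in WT, and mast cell and basophil markers (7 genes) to 126 to 440 CPM, 562 to 649 CPM and 49.1 to 155 CPM in the same groups. B cell markers (8 genes) summed to 28.3 to 634 CPM in E12, 128 to 254 CPM in VF and 328 to 3771 CPM in WT, and T and NK cell markers (8 genes) to 127 to 248 CPM, 509 to 590 CPM and 141 to 1137 CPM. At 0 in WT were also the stem cell markers Mecom, Tek and Procr, the B cell marker Ms4a1, the T cell markers Cd4 and Cd8a and the mast cell marker Cma1. The ranges of the erythroid sums were highest in WT and lowest in VF, though E12 and WT overlapped. Hemoglobin genes took 3.37% of counts in E12 5, against 0.104% in E12 1, 0.0786% in E12 2 and 0.173% to 0.325% in WT. Gene by gene, 2 of the 15 erythroid markers were higher and 3 lower in E12 against WT (edgeR, adjusted p under 0.05). Their median log2 fold change was 0.88. In VF against WT 0 were higher and 12 lower, with a median of -3.95. Shares over all tested genes were 23.9% higher and 18.1% lower in E12, and 27.7% and 20.9% in VF. The megakaryocyte and stem cell sums were highest in VF and lowest in WT with no overlap. The neutrophil sums and the T and NK cell sums were higher in VF than in E12 with no overlap, while WT overlapped with both. The B cell sums were lower in VF than in WT with no overlap, while E12 overlapped with both. The part of these levels in the results was not tested. In such bulk samples fewer cells of a type and less RNA per cell cannot be told apart.

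Levels of different genes can be compared per length, as CPM per kb. In E12, Sqstm1 (108 ± 6.29 CPM per kb), Gabarap (98.5 ± 9.21) and Map1lc3b (98.3 ± 3.98) stood together at the top, and their ranges overlapped. In VF, Map1lc3b was at the top with 179 ± 5.89 CPM per kb, apart from Sqstm1 (103 ± 8.23) and Gabarap (91.6 ± 3.44). In WT, Map1lc3b (323 ± 73.1 CPM per kb) came before Gabarap (217 ± 112) and Gabarapl1 (104 ± 19.99), and the ranges of Map1lc3b and Gabarap overlapped. Gabarapl2 and Atg5 lay in the middle in every group. The lowest were Ulk1 in E12 (4.62 ± 0.406 CPM per kb), Foxo3 in VF (4.46 ± 0.673) and Map1lc3a in WT (0.341 ± 0.422), all SD with n = 3. WT libraries spread far more. The coefficient of variation of a member had a median of 9.07% in E12, 6.71% in VF and 53.6% in WT.

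**Figure D1:**
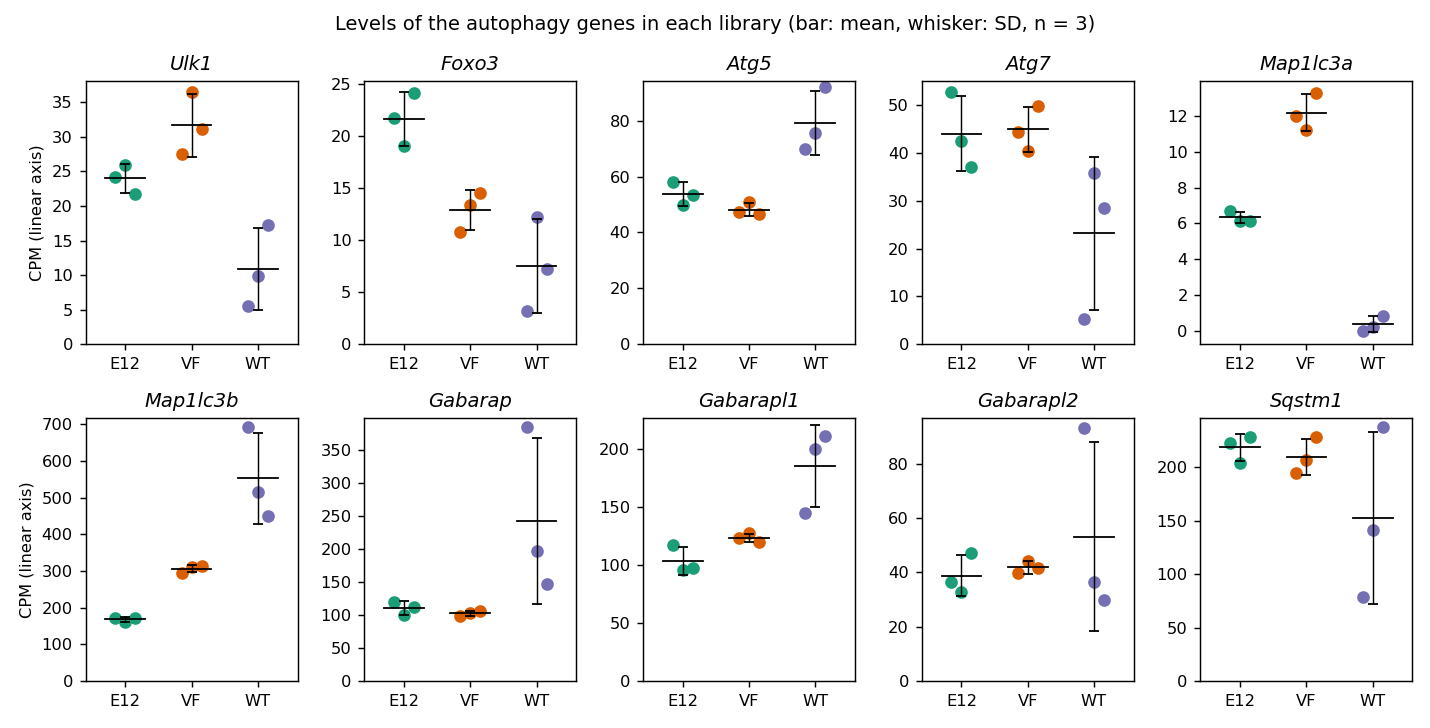
CPM of the 10 autophagy genes in each library (points), with the mean (bar) and SD (whisker) of the 3 libraries of E12, VF and WT, each panel on its own linear axis. Map1lc3b has 3 separate levels (E12 160 to 173, VF 295 to 313, WT 449 to 691 CPM), Map1lc3a is near 0 in WT, and WT points are the most spread.

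Measured against WT, the autophagy genes did not move as a block. In E12, Ulk1, Foxo3 and Map1lc3a rose and Map1lc3b, Gabarap and Gabarapl1 fell, so 3 of 10 members were called higher and 3 lower at an adjusted p of 0.05, against 23.9% higher and 18.1% lower among all 13608 genes tested. In VF, Ulk1 and Map1lc3a rose and Map1lc3b, Gabarap and Atg5 fell, 2 higher and 3 lower, against 27.7% and 20.9% of all genes. The median log2 fold change of the members was 0.03 in E12 and 0.06 in VF, against 0.36 over all tested genes in both comparisons. These shares are near the background and the comparisons share the WT libraries. Calls are from edgeR's quasi-likelihood test on all 9 libraries, with Benjamini-Hochberg adjustment over the 13608 genes. By overlap, 4 members had every E12 library above every WT library and 4 had every one below (33% and 20.3% of all genes), and in VF 3 lay above and 4 below (39.7% and 23% of all genes).

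Gene length moved with these directions. The median log2 fold change against WT of all tested genes under 1 kb was -1.84 in E12 and -1.77 in VF, of those from 1 to 2 kb -0.80 and -0.79, of those from 2 to 5 kb 0.64 and 0.63, and of those over 5 kb 1.11 and 1.22. The 5 Atg8 genes are all under 2 kb (980 bases for Gabarapl2 to 1773 for Gabarapl1), while Ulk1 is 5196 bases, Atg7 4033, Foxo3 2889, Atg5 2379 and Sqstm1 2030. Map1lc3a (1045 bases) and Atg5 went against the median of their length class in both comparisons. With an offset for gene length in each library, 2 members were called higher and 2 lower in E12 (15.8% and 14.1% of all genes), and 2 higher and 1 lower in VF (22.2% and 21.7%). The higher ones were then Map1lc3a and Gabarapl2 in both comparisons, and the lower ones were Map1lc3b and Atg5 in E12 and Atg5 in VF. Without WT 50, the library richest in short genes, 3 members were higher and 4 lower in E12 (28.4% and 24% of all genes), and 2 higher and 4 lower in VF (32.8% and 27.1%).

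**Figure D2:**
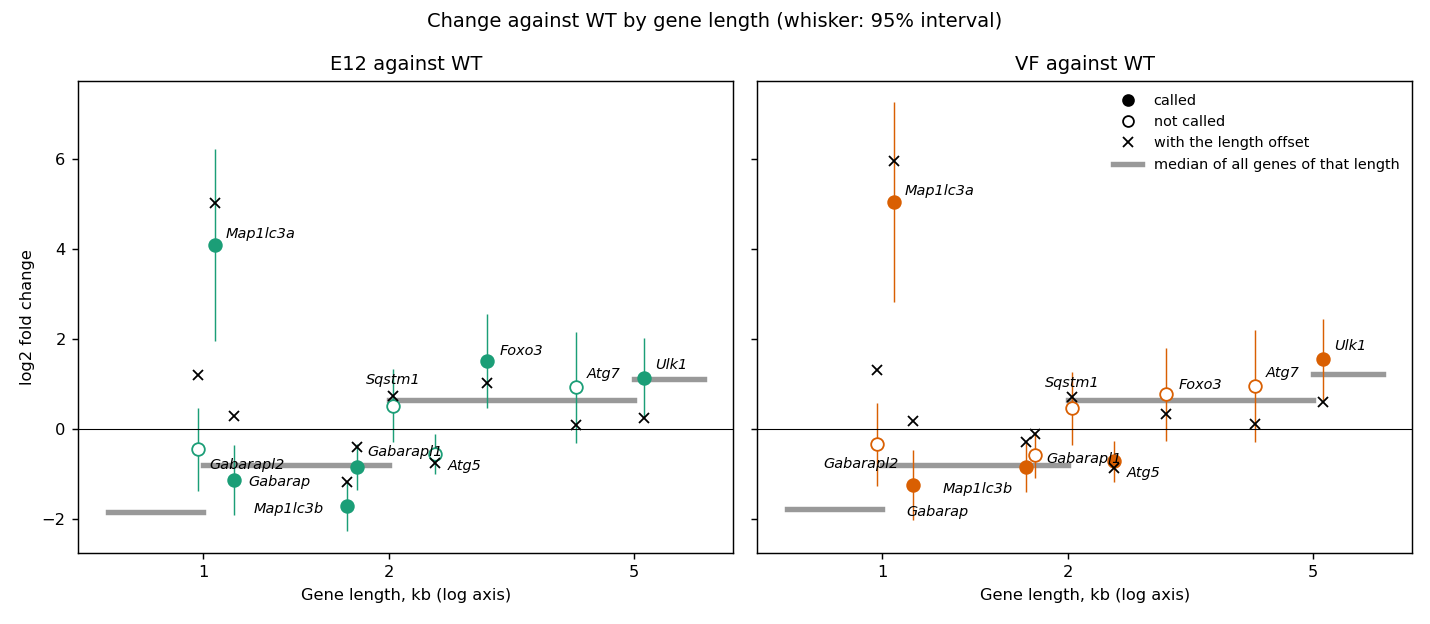
Log2 fold change against WT (vertical axis, circle with 95% interval) of each autophagy gene by its deposited length in kb (horizontal log axis), for E12 on the left and VF on the right. Filled circles were called, crosses give the value with the gene length offset, and grey bars give the median of all tested genes in each length class. Map1lc3a stays high in both fits, while Gabarap and Gabarapl2 move from below 0 to above 0 with the offset.

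Ulk1, the kinase that starts autophagosome formation, was at 24.2, 25.9 and 21.8 CPM in E12, 27.5, 36.5 and 31.1 CPM in VF, and 5.47, 9.87 and 17.2 CPM in WT. Every mutant library lay above every WT library. Ulk1 rose 2.21-fold in E12 (log2 fold change 1.14, SE 0.39, edgeR adjusted p = 0.0433) and 2.92-fold in VF (1.54, SE 0.40, adjusted p = 0.0116). With the length offset Ulk1 was at 0.25 in E12 (adjusted p = 0.55) and 0.59 in VF (adjusted p = 0.13), so neither call remained. The E12 call of Ulk1 was also lost when any one of the E12 or VF libraries or WT 51 was left out, with values from 0.97 to 1.21 on the log2 scale. All E12 libraries lay below all VF libraries for Ulk1, with a log2 fold change of -0.40 (95% interval -1.28 to 0.48) in the fit of 9 libraries.

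Foxo3, the transcription factor, was at 21.7, 19.01 and 24.1 CPM in E12, 10.7, 13.4 and 14.5 CPM in VF, and 3.15, 12.2 and 7.24 CPM in WT. E12 did not overlap with either other group, while VF and WT overlapped. Foxo3 rose 2.87-fold in E12 against WT (log2 fold change 1.52, SE 0.46, edgeR adjusted p = 0.027), and VF against WT gave 0.77 (SE 0.46, adjusted p = 0.189). The E12 value of Foxo3 with the length offset was 1.02 (adjusted p = 0.09). Leaving out any one E12 library or WT 52 also took the Foxo3 call away, with values from 1.24 to 1.61, and VF against WT was called without WT 51 (1.18, adjusted p = 0.029). Of 12 known FoxO targets, 3 rose in E12 against WT (Sesn3, Cited2 and Sesn1) and 1 fell (Sod2), against 23.9% and 18.1% of all genes. In VF 6 rose (Sesn3, Cited2, Ccng2, Sesn1, Pik3ca and Insr) and Sod2 fell, against 27.7% and 20.9%. Under the length offset 2 FoxO targets were higher and 2 lower in E12 (15.8% and 14.1% of all genes). In VF 3 were higher and 2 lower (22.2% and 21.7%), and the list's median log2 fold change was 0.27, against 1.43 without the offset. Without WT 50, 6 targets were higher and 1 lower in E12 (28.4% and 24% of all genes), and 8 higher and 1 lower in VF (32.8% and 27.1%). In E12 against VF Foxo3 gave 0.75 and was not called (edgeR adjusted p = 0.445). There 0 targets were called in either direction, against 2.19% of all genes higher and 1.02% lower. The median log2 fold change of the targets was -0.59, against -0.05 over all genes. Whether Foxo3 acts on these genes here was not tested.

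Atg5, part of the complex that hands Atg8 proteins to lipid, was at 58.2, 49.7 and 53.4 CPM in E12, 47.1, 50.8 and 46.5 CPM in VF, and 69.8, 75.6 and 91.9 CPM in WT. No mutant library reached the lowest WT library. Atg5 fell in VF (log2 fold change -0.72, SE 0.20, edgeR adjusted p = 0.0167), and E12 against WT gave -0.56 (SE 0.20, adjusted p = 0.0503), just outside the threshold. Both were called for Atg5 with the length offset, at -0.77 in E12 (adjusted p = 0.013) and -0.86 in VF (adjusted p = 0.0048). The VF call of Atg5 was lost when any one VF library was left out (-0.75 to -0.69), and E12 was called when any one WT library was left out (-0.76 to -0.72).

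Atg7, the enzyme that activates the Atg8 proteins for coupling, was at 52.6, 42.4 and 37.1 CPM in E12, 44.4, 40.4 and 49.9 CPM in VF, and 5.25, 35.9 and 28.4 CPM in WT. All mutant libraries lay above all WT libraries, and WT 50 stood far below the other WT libraries. The change of Atg7 did not pass the edgeR test in E12 (log2 fold change 0.92, SE 0.55, adjusted p = 0.203) or in VF (0.95, SE 0.55, adjusted p = 0.181). Without WT 50 the values of Atg7 were 0.31 in E12 and 0.34 in VF, and with the length offset 0.08 and 0.12. E12 and VF differed by -0.03 in Atg7 (95% interval -1.26 to 1.202).

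Map1lc3b (LC3B), the LC3 gene with the most reads, had 3 separate levels. It was at 171, 160 and 173 CPM in E12, 295, 311 and 313 CPM in VF, and 691, 516 and 449 CPM in WT, and no group overlapped with another. Map1lc3b was 3.28-fold lower in E12 than in WT (log2 fold change -1.71, SE 0.25, edgeR adjusted p = 0.00191), and this was called under all 20 alternatives, with values from -2.13 to -0.76. VF against WT gave -0.85 (SE 0.24, adjusted p = 0.0179), which was -0.29 with the length offset (adjusted p = 0.19) and 0.46 on the deposited log2 levels (limma adjusted p = 0.08), so its direction depends on the scale. The VF call of Map1lc3b was also lost when any one VF library was left out (-0.86 to -0.82).

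Map1lc3a (LC3A), the close relative, went the other way. It was at 6.71, 6.13 and 6.17 CPM in E12 and 12.0, 11.3 and 13.3 CPM in VF, against 0, 0.218 and 0.85 CPM in WT, which are 0, 7 and 25 counts. In WT 50 the count of 0 allows a level of up to 0.166 CPM (3 counts, counting error only). Every mutant library was above every WT library. The log2 fold change of Map1lc3a was 4.09 in E12 (SE 0.95, edgeR adjusted p = 0.00948) and 5.03 in VF (SE 0.98, adjusted p = 0.00364). VF was called under all 20 alternatives (4.43 to 6.30) and E12 under 19, the exception being the fit of only E12 and WT (4.11, adjusted p = 0.056). With the length offset the values of Map1lc3a were 5.03 and 5.96, further from 0. Without WT 50 they were 3.48 in E12 and 4.43 in VF, and without WT 52 5.36 and 6.30.

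Gabarap, the founding member of the other Atg8 branch, was at 120, 99.5 and 112 CPM in E12, 98.7, 103 and 106 CPM in VF, and 385, 197 and 147 CPM in WT. All mutant libraries lay below all WT libraries, and WT 50 was the highest. Gabarap fell in E12 (log2 fold change -1.14, SE 0.34, edgeR adjusted p = 0.0262) and in VF (-1.24, SE 0.34, adjusted p = 0.0157). Both values of Gabarap turned above 0 with the length offset, to 0.28 in E12 (adjusted p = 0.14) and 0.17 in VF (adjusted p = 0.31). Leaving out any one library of the mutant group also took each call away, at -1.19 to -1.06 in E12 and -1.26 to -1.21 in VF.

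Gabarapl1 was at 117, 96.0 and 97.1 CPM in E12, 123, 127 and 120 CPM in VF, and 145, 200 and 211 CPM in WT, with all mutant libraries below all WT libraries. Gabarapl1 fell in E12 (log2 fold change -0.84, SE 0.23, edgeR adjusted p = 0.0164), and VF gave -0.59 (SE 0.23, adjusted p = 0.0563). The E12 call of Gabarapl1 was lost with the length offset (-0.40, adjusted p = 0.093), without E12 2 (-0.78) and without E12 5 (-0.79), and VF was called without any one WT library (-0.86 to -0.69). Gabarapl2, whose counts are uncertain, was at 36.3, 32.9 and 47.2 CPM in E12, 39.7, 44.2 and 41.6 CPM in VF, and 93.2, 36.3 and 29.95 CPM in WT. Its groups overlapped. Gabarapl2 was not called in E12 (-0.45, adjusted p = 0.393) or VF (-0.34, adjusted p = 0.505), and without WT 52 it was at -1.04 and -0.93 (adjusted p = 0.052 and 0.070). With the length offset it was called higher in both, at 1.21 (adjusted p = 0.0024) and 1.31 (adjusted p = 0.00082).

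Sqstm1 (p62), the receptor that links ubiquitin-tagged cargo to Atg8 proteins, was at 223, 204 and 229 CPM in E12, 195, 207 and 228 CPM in VF, and 78.8, 141 and 238 CPM in WT. WT overlapped with both mutants and held the lowest and the highest library. No change of Sqstm1 passed the edgeR test, with a log2 fold change of 0.52 in E12 (SE 0.36, adjusted p = 0.274) and 0.46 in VF (SE 0.36, adjusted p = 0.317). Sqstm1 was called in E12 without WT 52 (0.72, adjusted p = 0.043) and, on the deposited log2 levels with limma, in both mutants (1.05, adjusted p = 0.037, and 1.27, adjusted p = 0.015).

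The comparison of E12 with VF asks how the mutants differ from each other. Map1lc3b averaged 168 ± 6.81 CPM in E12 and 306 ± 10.1 CPM in VF, Map1lc3a 6.34 ± 0.327 and 12.2 ± 1.03 CPM, and Foxo3 21.6 ± 2.57 and 12.9 ± 1.94 CPM (SD, n = 3). In the fit of all 9 libraries 0 of 10 members were called by edgeR, against 2.19% of all genes higher and 1.02% lower, and Map1lc3b alone had an unadjusted p under 0.05 (log2 fold change -0.86, SE 0.24, adjusted p = 0.098). DESeq2 called 1 member (Map1lc3b, -0.91), limma on the deposited levels 1 (Map1lc3b, -1.22) and limma-voom 0. Each of these tools also called more genes over all than edgeR did, as given below, so the edgeR shares are not their background. The edgeR fit of all 9 libraries shares 1 estimate of spread with the WT libraries, which vary most. When E12 and VF alone were fitted, 1 member was higher and 2 lower, against 25.4% and 22.6% of all genes. These were Foxo3 (1.72-fold higher, log2 fold change 0.78, SE 0.17, edgeR adjusted p = 0.0061), Map1lc3b (1.78-fold lower, -0.83, SE 0.08, adjusted p = 0.00013) and Map1lc3a (1.88-fold lower, -0.91, SE 0.18, adjusted p = 0.0038). In the fit of 9 libraries Map1lc3b was also called without WT 50 (-0.86, adjusted p = 0.0032) and without WT 52 (-0.86, adjusted p = 0.041).

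By overlap, 1 member (Foxo3) had all E12 libraries above all VF libraries and 4 (Ulk1, Map1lc3a, Map1lc3b and Gabarapl1) had all below, against 28.2% and 31.3% of all genes. The other 5 overlapped. Ulk1 (-0.37, adjusted p = 0.064) and Gabarapl1 (-0.22, adjusted p = 0.058) missed the threshold in the fit of E12 and VF alone. In the fit of E12 and VF alone the 95% intervals of the log2 fold change were -0.06 to 0.33 for Gabarap, -0.12 to 0.31 for Sqstm1, -0.32 to 0.32 for Atg7, -0.03 to 0.41 for Atg5 and -0.43 to 0.28 for Gabarapl2. Length classes differed little here, with medians from -0.16 to -0.02. With the length offset Map1lc3b was at -0.89 (adjusted p = 0.015). Erythroid and megakaryocyte marker sums differed between E12 and VF as given above.

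**Figure D3:**
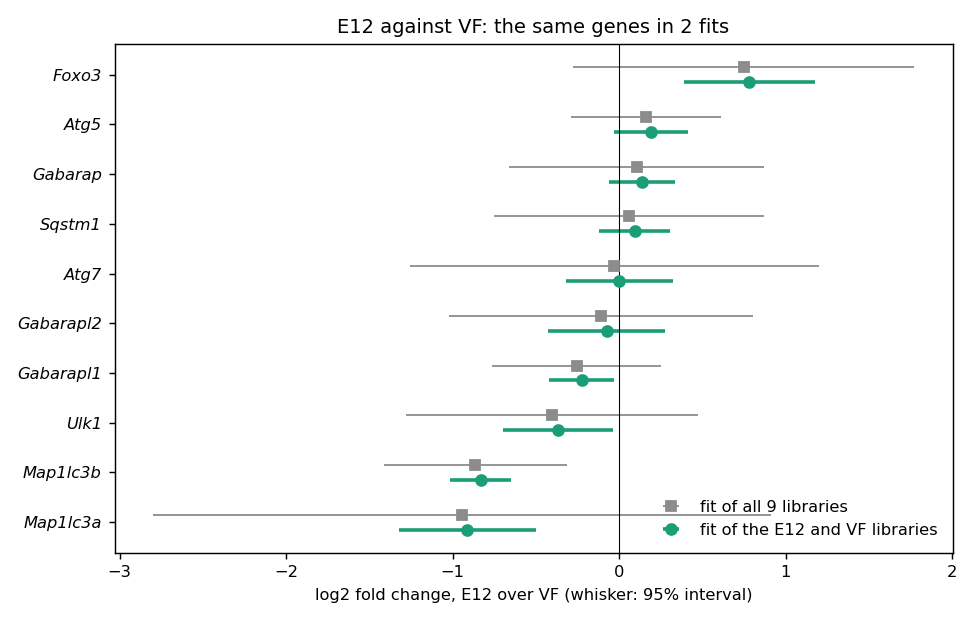
Log2 fold change of E12 over VF (horizontal axis) with its 95% interval for each autophagy gene, from the fit of all 9 libraries (squares) and from the fit of the E12 and VF libraries alone (circles). The values of the 2 fits lie close together and the intervals are narrower without WT: those of Map1lc3b, Map1lc3a and Foxo3, which were called, and of Ulk1 and Gabarapl1, which were not, are clear of 0.

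The make-up of the Atg8 family, as each gene's share of the summed CPM per kb, set E12 apart from VF. Map1lc3b made up 31.6%, 33.9% and 32.6% of the family in E12 and 45.1%, 45.3% and 45.6% in VF, against 43.7%, 48.1% and 48.3% in WT. Gabarap made up 33.8%, 32.1% and 32.2% in E12 and 23.0%, 22.9% and 23.7% in VF, against 37.2%, 28.0% and 24.1% in WT. Map1lc3b held the largest share in every VF and WT library, and shared the top with Gabarap in E12. The ratio of Map1lc3b to Gabarap CPM was 1.43, 1.61 and 1.55 in E12, 2.99, 3.02 and 2.94 in VF, and 1.79, 2.62 and 3.06 in WT. E12 lay below both other groups in this ratio, while VF lay within the WT range. Gabarapl1 held 19.4% ± 1.58 in E12, 17.7% ± 0.695 in VF and 16.2% ± 6.70 in WT, Gabarapl2 13.1% ± 2.11, 10.8% ± 0.364 and 7.28% ± 2.62, and Map1lc3a 2.02% ± 0.110, 2.96% ± 0.254 and 0.061% ± 0.079 (SD, n = 3). The family sum was 301 ± 21.6 CPM per kb in E12, 394 ± 11.2 in VF and 698 ± 199.99 in WT. All 5 genes are under 2 kb. The median log2 fold change against WT of all tested genes from 1 to 2 kb was -0.80 in E12 and -0.79 in VF. CPM per kb does not correct for a length effect that differs between libraries, so neither the sum nor the shares are corrected against WT. With the length offset Gabarap and Gabarapl2 were above 0 against WT in both mutants. An exact two-sided permutation test of one such value, 3 libraries against 3, cannot go below p = 0.1, and the shares are given as a description.

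**Figure D4:**
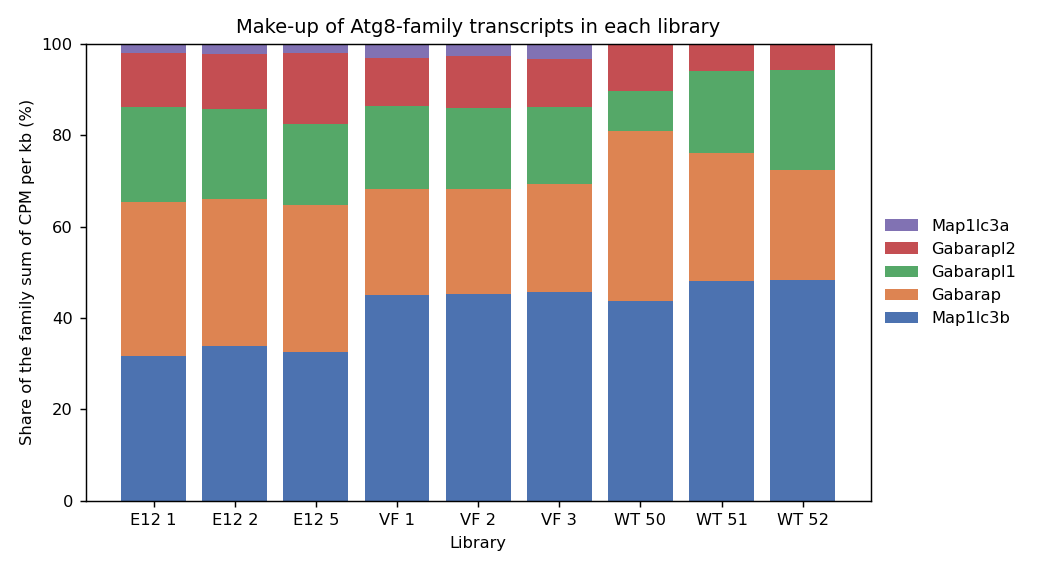
Share (%) of each Atg8-family gene in the family's summed CPM per kb (stacked bars from 0 to 100) in each of the 9 libraries, ordered E12, VF and WT. Map1lc3b takes 31.6% to 33.9% in E12 and 45.1% to 45.6% in VF, and Map1lc3a is too small to see in WT.

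Of 91 other genes of the pathway in 10 lists, all tested, 26 rose and 10 fell in E12 against WT, 29 rose and 17 fell in VF against WT, and 2 rose and 0 fell in E12 against VF by edgeR (background shares as above). With the length offset the split turned to 13 higher and 17 lower in E12 (15.8% and 14.1% of all genes), and 18 higher and 28 lower in VF (22.2% and 21.7%). Without WT 50 it was 32 and 26 in E12 (28.4% and 24% of all genes) and 31 and 29 in VF (32.8% and 27.1%). The split between higher and lower calls thus changed with the correction for length, while among the single pathway genes named below the direction turned for Rptor in E12.

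Partners of Ulk1 split. Rb1cc1, the scaffold that holds the Ulk1 complex, was at 35.9 ± 3.14 CPM in E12 and 45.1 ± 5.72 in VF, against 10.7 ± 3.26 in WT, and rose in both (log2 fold change 1.75 and 2.08), though neither was called with the length offset. Atg101, another subunit, was at 74.3 ± 0.822 CPM in E12 and 107 ± 9.13 in VF, against 306 ± 282 in WT (-2.04 and -1.51). WT 50 had 632 CPM of Atg101, against 155 and 132 in WT 51 and WT 52, and without WT 50 the values were -1.09 in E12 and -0.56 in VF, both still called. Without WT 51 or WT 52 they were -2.65 and -2.72 in E12, and -2.12 and -2.19 in VF. Atg101 was called neither with the offset nor without any one E12 library in E12 or any one mutant library in VF. In the lipid kinase complex that marks the new membrane, Rubcn, an inhibitor of autophagy, rose by 2.92 and 3.45 on the log2 scale and Uvrag by 2.43 and 2.61, and both stayed called with the offset. Atg9a, a membrane protein that feeds the growing autophagosome, rose by 1.31 in E12 and 1.14 in VF, not called with the offset, and the VF call was lost without VF 2, VF 3, WT 50 or WT 52 (0.76 to 1.11). Among the PI3P-binding proteins Wdr45 fell in E12 (-1.74) and Wipi1 in VF (-1.37, lost with the offset at -0.92 and without any one VF library at -1.40 to -1.31). The VF libraries of Wdr45 (84.1, 81.4 and 80.9 CPM) also lay below all WT libraries (215, 105 and 117 CPM), while the E12 libraries of Wipi1 overlapped with WT.

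Of the enzymes that act with Atg7 and Atg5, the lipid-coupling enzyme Atg3 rose in E12 (log2 fold change 1.38, adjusted p = 0.0071), at 135 ± 5.70 CPM against 51.7 ± 19.6 CPM in WT. The VF libraries of Atg3 (125, 116 and 119 CPM) also lay above all WT libraries (54.3, 30.8 and 69.9 CPM). The Atg4 proteases, which cut the Atg8 proteins before the next step, moved apart. Atg4c rose in both mutants (1.96 in E12, lost without E12 2 at 1.78, and 2.37 in VF). Atg4b fell in VF (-1.16, adjusted p = 0.0059), and its E12 libraries (152, 133 and 140 CPM) also lay below all WT libraries (158, 263 and 272 CPM). On the deposited log2 levels the VF value of Atg4b was -0.50 and was not called (limma adjusted p = 0.157).

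Beside Sqstm1, 11 other genes of cargo binding and mitophagy were tested, which are receptors apart from the kinase Pink1. Of these, 5 rose and 2 fell in E12, and 5 rose and 3 fell in VF. With the length offset it was 3 higher and 3 lower in E12, and 4 and 4 in VF, and without WT 50 it was 5 and 4 in both. Shares over all genes were 23.9% higher and 18.1% lower in E12, and 27.7% and 20.9% in VF. They were 15.8% and 14.1%, and 22.2% and 21.7%, with the offset. Without WT 50 they were 28.4% and 24%, and 32.8% and 27.1%. The counts are a description. Ncoa4, the receptor that brings ferritin to autophagosomes, was at 77.8, 85.8 and 90.3 CPM in E12, 162, 153 and 172 CPM in VF, and 10.7, 8.94 and 23.4 CPM in WT, with no overlap between any groups. Ncoa4 rose by 2.56 on the log2 scale in E12 (edgeR adjusted p = 0.00179) and by 3.50 in VF (adjusted p = 0.000329). Bnip3l (Nix), the receptor for mitochondria in maturing red cells, was at 82.6, 77.5 and 94.5 CPM in E12, 91.2, 96.0 and 90.3 CPM in VF, and 392, 160 and 139 CPM in WT. Bnip3l was lower than in WT in both (-1.44, adjusted p = 0.0156, and -1.32, adjusted p = 0.0187). Its calls were lost without E12 1 (-1.41) or E12 2 (-1.37), and without any one VF library (-1.33 to -1.29). Pink1, a kinase that marks damaged mitochondria, rose in E12 (1.42). Its VF libraries (92.5, 58.0 and 48.9 CPM) also lay above all WT libraries (22.2, 23.7 and 22.2 CPM). Phb2, a mitochondrial inner membrane receptor, fell in VF (-2.79). Its E12 libraries (706, 558 and 571 CPM) also lay below all WT libraries (2692, 1368 and 983 CPM). Bcl2l13, a mitochondrial receptor, was the receptor called between the mutants, at 179, 139 and 163 CPM in E12 and 57.0, 65.4 and 59.5 CPM in VF (1.40, SE 0.30, adjusted p = 0.0405). That call of Bcl2l13 was lost when any one E12 or VF library was left out (1.32 to 1.50).

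Of 12 genes for fusion with lysosomes, 3 rose and 1 fell in each mutant, but 1 was higher and 4 lower in each with the length offset. Without WT 50 it was 4 higher and 3 lower in E12, and 4 and 4 in VF. For this list and the next lists, shares over all genes were 23.9% higher and 18.1% lower in E12, and 27.7% and 20.9% in VF. They were 15.8% and 14.1%, and 22.2% and 21.7%, with the offset. Without WT 50 they were 28.4% and 24%, and 32.8% and 27.1%. The list counts are a description. The genes with the smallest p were the tethering subunit Vps39 (log2 fold change 2.22 in E12 and 2.69 in VF) and the adaptor Plekhm1 (1.48 and 1.34, neither called with the length offset). Of 10 lysosome genes 3 rose and 0 fell in E12, and 3 rose and 1 fell in VF (2 and 1, and 4 and 2, with the offset, and 3 and 3, and 3 and 4, without WT 50). Lamp1, a lysosomal membrane protein, was at 408 ± 46.8 CPM in E12 and 293 ± 4.97 in VF, against 87.6 ± 50.9 in WT. The proton pump subunit Atp6v1a rose in E12 (1.43, not called with the offset or without E12 5, 1.36), and the protease Ctsl fell in VF (-1.50, and -2.09 without WT 52). The VF libraries of Atp6v1a (80.0, 82.6 and 88.9 CPM) also lay above all WT libraries (24.7, 19.3 and 60.2 CPM), while the E12 libraries of Ctsl overlapped with WT. Of 10 nutrient sensing genes, 3 rose and 2 fell in E12, and 0 rose and 4 fell in VF. With the offset 0 were higher and 2 lower in E12, and 0 higher and 8 lower in VF, and without WT 50 it was 3 and 5 in E12, and 0 and 4 in VF. In E12 the catalytic AMPK subunit Prkaa1 (1.17) and the mTORC1 subunit Rptor (0.87) rose, but with the offset Prkaa1 was at 0.24 and Rptor turned to -0.18, neither called. In VF the AMPK subunits Prkag1 (-1.96) and Prkab1 (-1.59) fell. The E12 libraries of Prkag1 (309, 208 and 292 CPM) also lay below all WT libraries (500, 608 and 600 CPM), while those of Prkab1 overlapped with WT. The VF libraries of Rptor (44.6, 43.3 and 50.1 CPM) lay above all WT libraries (34.1, 34.8 and 30.2 CPM), while those of Prkaa1 overlapped with WT.

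**Figure D5:**
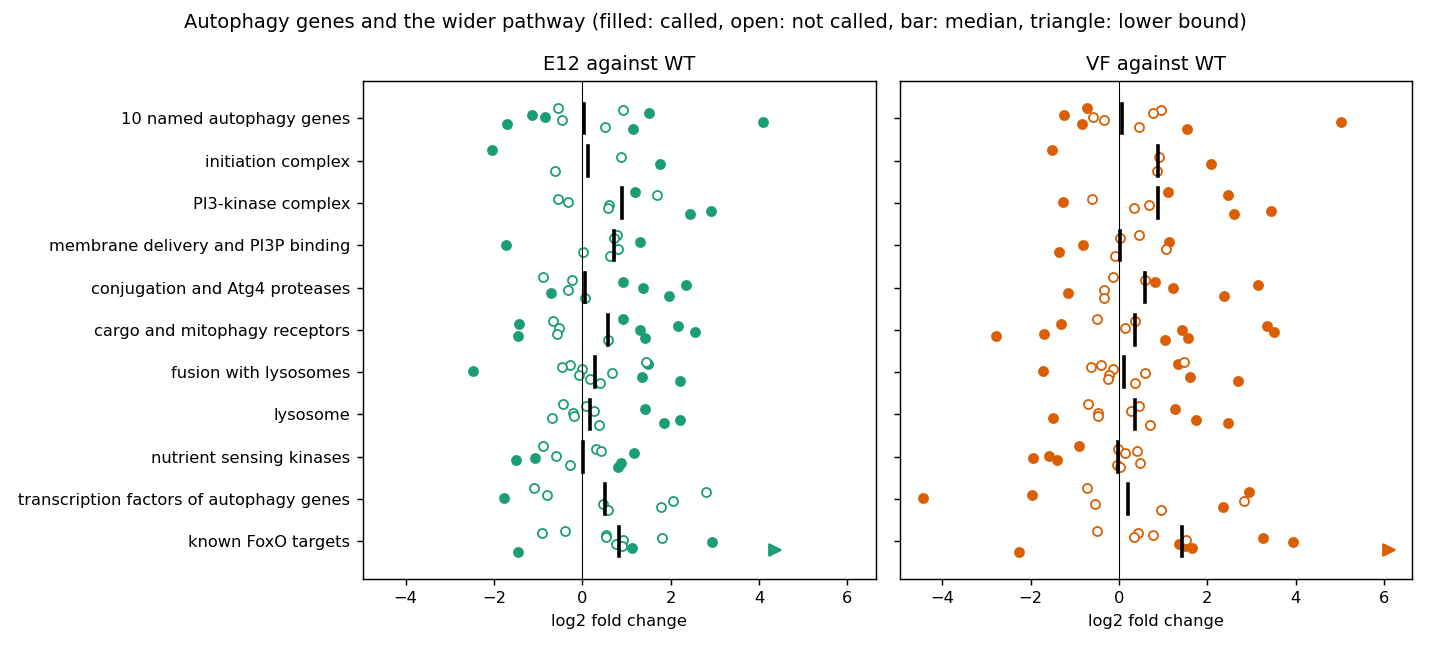
Log2 fold change against WT (horizontal axis) of the 10 autophagy genes (top row) and of the 10 lists of other pathway genes (rows below), for E12 on the left and VF on the right. Filled points were called, open points were not, bars are list medians, and the triangle is Sesn3 at its lower bound, since it had 0 counts in WT. Every list holds genes on both sides of 0.

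Among transcription factors that act on autophagy genes, Klf1, a master factor of red cell genes, separated all groups. Klf1 was at 836, 630 and 680 CPM in E12, 70.9, 163 and 104 CPM in VF, and 3413, 2235 and 1691 CPM in WT. Klf1 fell in E12 (log2 fold change -1.77, adjusted p = 0.00876) and in VF (-4.44, adjusted p = 0.00027), and was higher in E12 than in VF (2.67, SE 0.42, adjusted p = 0.0153, by edgeR). Tested with limma on the authors' log2 levels, Klf1 was at -0.39 in E12 against WT (adjusted p = 0.43), not called, and at -3.24 in VF. The edgeR call of Klf1 between E12 and VF was lost without VF 1, VF 3, E12 1, E12 2 or E12 5 (2.43 to 2.75). Gata1, the erythroid and megakaryocyte factor, was at 434 ± 51.5 CPM in E12 and 194 ± 19.2 in VF, against 761 ± 309 in WT, and fell in VF (-1.97, adjusted p = 0.00233), while E12 gave -0.81 (adjusted p = 0.0817), called without WT 50 (-1.24) or WT 52. On the deposited levels Gata1 was not called in VF (-0.74, adjusted p = 0.22) and was at 0.30 in E12 (adjusted p = 0.63). E12 against VF gave 1.17 for Gata1 (adjusted p = 0.108), called without WT 50 (1.16). Tfeb, a master factor of lysosome genes, was at 2.92 ± 0.636 CPM in E12 and 4.37 ± 0.380 in VF, against 0.859 ± 0.701 in WT. Tfeb rose in VF (2.36, adjusted p = 0.0183, lost without any one VF library, WT 51 or WT 52, 1.72 to 2.40, and with the offset, 1.69). Without WT 50 it was at 3.13 in VF. E12 gave 1.78 for Tfeb (adjusted p = 0.0575), called without WT 50 (2.55) and at 1.15 without WT 51. Among the FoxO targets, Cited2 rose by 2.93 in E12 and 3.93 in VF (2.27 and 3.27 without WT 52). Sesn3 had 0 counts in all WT libraries and was at least 20.4-fold higher in E12 and at least 69.3-fold higher in VF, against 3 counts over the WT group.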

How the data were processed

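RNA of 9 libraries (3 each of E12, VF and WT) was extracted with a PicoPure kit and made into libraries with Smart-Seq2, which has no strand or molecular identifiers, per the labels. The deposited counts are whole numbers per gene. The authors also deposited log2 expression levels, used only as an alternative, and a gene length in bases. STAR, limma and the builds GRCm38 and mm10 are named, without version or role, per the submitters' processing notes, and the counting tool is not given in the sources used here. Total counts ran from 19256431 to 39736096.

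The 10 members, the 10 pathway lists and the 8 marker lists were chosen with earlier results of these data known. Counts were tested with edgeR 4.0.16 in R 4.3.3 (filterByExpr, 13608 genes kept, TMM, glmQLFit and glmQLFTest, one fit of all 9 libraries by group), with Benjamini-Hochberg adjustment over those genes and a threshold of 0.05. The 8 genes without a symbol have Entrez identifiers and stayed in. Calls across the text are from this test unless another is named. The fits were also run on simulated data, drawn with 1 mean and 1 spread per gene for all 9 libraries apart from changes that were set. Those data held neither the wider spread of WT nor the length effect, so they do not test the calls under either. From each list up to 2 called genes with the smallest p are named per comparison, and Bnip3l, Ncoa4, Gata1, Klf1 and Tfeb always. A gene named for only one mutant can therefore also differ from WT in the other. Genes named beyond that rule were chosen after their values were seen, as were Sesn1, Sod2, Ccng2, Pik3ca and Insr, which were named to account for a count. Likeness to a member is the root mean square difference of centred log2(CPM + 0.5) over 9 libraries, among genes of at least 10 CPM. Other settings tried were upper-quartile and RLE scaling, 2 other filters, the tools DESeq2 1.42.0 and limma 3.58.1 (voom, and the deposited log2 levels), models with just the groups compared, a gene length offset (a spline with 5 degrees of freedom per library), a replicate block, and leaving out libraries. Transcript copies were searched with BLAST, and figures drawn with matplotlib 3.10.9. No 2 count columns were identical (0 pairs). The end of 1 coding sequence is not reported here.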

Additional observations from a re-analysis of the deposited data

How the results depend on the processing

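Of 600 values of the 10 genes under the alternatives, 504 kept direction and side of the threshold, 46 lost a call, 32 gained one, 13 changed sign with no call and 5 reversed. The reversed values against WT were Map1lc3b in VF on the deposited levels (0.46), and, with the gene length offset, Gabarap in E12 (0.28) and VF (0.17) and Gabarapl2 in E12 (1.21) and VF (1.31). The offset was built on gene length alone, and other causes were not tested. Of 1000 values of the other named genes, 898 kept direction and side, 80 lost a call, 20 gained one, 1 changed sign with no call, and 1 reversed, Rptor in E12 against WT (-0.18). On the deposited levels the VF calls against WT of Atg101, Atg9a, Atg4b, Plekhm1, Prkag1, Gata1, Bnip3l and Tfeb were lost. In E12 against WT those of Atg9a, Atg4c, Pink1, Rptor and Klf1 were lost on that scale. With RLE factors the median log2 fold change of all genes was 0.17 in E12 and 0.21 in VF, against 0.36 with TMM.

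For VF against WT, members called lower numbered 1 on the deposited levels, 0 with only the 2 groups, 1 with the length offset and 0 to 4 with 1 library left out. For E12 against WT, with only the 2 groups, 0 members were higher and 1 lower, and 2967 genes were called of all, and with 1 library left out 1 to 3 were higher, 1 to 4 lower and 3612 to 7339 of all genes called. Shares over all genes moved with the setting too. In VF against WT 20.9% were lower with the main settings, 21.7% with the length offset and 27.1% without WT 50. In E12 against WT 23.9% were higher and 18.1% lower with the main settings, and 28.4% and 24% without WT 50. The member counts are a description.

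For E12 against VF the 437 calls among all genes became 1695 with DESeq2, 924 with limma-voom, 1642 on the deposited levels, 6412 with only the 2 groups, 1217 with the length offset, 134 with the replicate block, 2553 without WT 50 and E12 5 together, and 19 to 3290 with 1 library left out. Members called higher numbered 1 with only the 2 groups. Members called lower numbered 1 with DESeq2, the deposited levels, the length offset or without WT 50 and E12 5, 2 with only the 2 groups, and 0 to 1 with 1 library left out. Of all genes, 2.19% were higher and 1.02% lower with the main settings, and 5.64% and 3.31% with the length offset. Without WT 50 and E12 5 these shares were 11.3% and 7.1%, and with only the 2 groups 25.4% and 22.6%. The member counts are a description, and the cause of the changes between settings was not tested. Higher genes made up most of the calls (298 of 437) but 860 of 1695 with DESeq2 and 411 of 924 with limma-voom.

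E12 and VF share only the replicate numbers 1 and 2. Deviations from the group means correlated at 0.03 and 0.12 for equal numbers and at 0.00 and 0.14 for crossed ones. With the replicate block 5828 genes were called in VF against WT and 4757 in E12 against WT, where Ulk1 lost its call (adjusted p = 0.067). No other member changed its call under the block. Outside Map1lc3a in WT, every member had at least 57 counts in every library.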

Other observations

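The genes whose levels over the 9 libraries ran most like a member's, by the root mean square difference of log2 CPM after centring, are given as a description. They were chosen from 8994 tested genes of at least 10 CPM, and share the libraries and their scaling. Closest to Map1lc3b were Tspan32 (0.0991, a tetraspanin of blood cells), Cryzl1 (0.122) and Glrx (0.132, a glutaredoxin). Tspan32 averaged 253 CPM in E12, 460 CPM in VF and 815 CPM in WT. Closest to Sqstm1 were Lipa (0.0935, the lysosomal acid lipase), Cat (0.0985, catalase) and Tango6 (0.121). Lipa averaged 69.3 CPM in E12, 64.8 CPM in VF and 44.4 CPM in WT. Closest to Foxo3 were Susd6 (0.217), Helz2 (0.249) and Sec24a (0.254, a coat subunit of transport vesicles). Susd6 averaged 49.8 CPM in E12, 30.2 CPM in VF and 16.3 CPM in WT.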
